A study of Homo sapiens with 4 samples.

Results

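H3K27ac peaks of chromosome 5 were taken from the peak lists of MOLM13 cells treated with SNDX-50469 plus OTX015 (the combination) and with OTX015 alone. Every peak on chromosome 5 was a member, which gave 4016 of 86207 peaks in the combination list and 3368 of 55852 peaks in the OTX015 list, or 7384 of 142059 in all. A peak ending at or below 48.8 Mb on GRCh38 was placed on the short arm and the others on the long arm, so that the short arm held 2986 combination and 2492 OTX015 peaks and the long arm 1030 and 876. No peak crossed that boundary. The rule used position alone, so the values of the peaks took no part in it.

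MOLM13 is an established human cell line of acute myeloid leukaemia that carries the MLL-AF9 fusion. The combination cells received 500 nM SNDX-50469, a Menin inhibitor that keeps Menin from docking on MLL proteins, together with 500 nM OTX015, an inhibitor of the BET bromodomain proteins, for 16 hours. The reference cells received 500 nM OTX015 alone for the same time, so both groups carry the fusion and the BET inhibitor, and the comparison addresses what the Menin inhibitor added to it. There was 1 H3K27ac ChIP library per treatment, from 1 cell line. No difference between treatments therefore had a replicate check, no test between them was made, and the words more and less refer to these libraries only.

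Acetylation of lysine 27 of histone H3 marks active promoters and enhancers. BET proteins read acetylated histones and pass the signal to the transcription machinery, and Menin anchors MLL proteins and MLL fusions to their target genes. In a cell line the mark is normally concentrated at the 5′ ends and enhancers of the genes the lineage uses. The long arm of chromosome 5 carries the interval lost in del(5q) myeloid neoplasms, an interleukin cluster and the clustered protocadherins. The short arm carries TERT at its end and, nearer the centromere, a group of cytokine receptor genes.

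The lists gave no read numbers, and depth was read from the peak values. The background solved from them was 1.47 fragments per base in the combination library and 0.764 in the OTX015 library, a ratio of 1.92. The lowest peaks stood 4.76 times above background in the combination list and 6.54 times in the OTX015 list, so a weaker region could be called in the combination library. The fold of a peak, as the caller gave it, adds 1 to pileup and to background and is therefore smaller, 3.24 and 3.4 for those lowest peaks. That single background accounted for the −log10 p of 99.2% of short arm and 99.1% of long arm peaks in the combination list, and of 99.2% and 96.9% in the OTX015 list, within 0.1, so neither arm was given a background of its own. All 8 myeloid marker genes had cover in at least 1 list, ITGAM in the combination list alone, and 5 of their 8 promoters were under a peak in each list. Of 8 B and T cell markers 5 had cover, with 2 promoters under a combination peak and 1 under an OTX015 peak. Among these, CD79A had 4.99 and 2.72 kb and a promoter peak in both lists. Of 7 erythroid, epithelial, liver and stromal markers 1 had cover, with 0 promoters under a peak in either list.

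The 7 promoters below belong to genes to which the results return. They are among the 8 highest promoter peaks of both lists on their arm (ANXA2R, NIPBL and GOLPH3 on the short arm, LMNB1, RAPGEF6 and CSNK1A1 on the long arm) or show the largest difference near a 5′ end (MACROH2A1). Each line gives the 200 bases before the 5′ end from the RefSeq promoter table (GRCh38.p14), 5′ to 3′ along the gene. Capitals mark matches, on either strand, to the CCAAT box (CCAAT), the GC box (GGGCGG), the ETS core (CCGGAAG), the CRE core (TGACG) or the E-box (CACGTG). Matches can overlap.
ANXA2R (chr5:43043248-43043447, minus strand): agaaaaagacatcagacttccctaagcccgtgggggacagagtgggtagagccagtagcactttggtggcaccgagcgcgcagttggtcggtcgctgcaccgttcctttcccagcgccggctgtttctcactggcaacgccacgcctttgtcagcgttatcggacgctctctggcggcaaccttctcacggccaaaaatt
NIPBL (chr5:36876569-36876768, plus strand): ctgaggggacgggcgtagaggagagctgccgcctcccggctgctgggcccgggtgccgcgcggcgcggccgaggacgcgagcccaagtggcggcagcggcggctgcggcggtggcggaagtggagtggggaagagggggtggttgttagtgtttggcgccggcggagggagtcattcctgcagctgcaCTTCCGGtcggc
GOLPH3 (chr5:32174320-32174519, minus strand): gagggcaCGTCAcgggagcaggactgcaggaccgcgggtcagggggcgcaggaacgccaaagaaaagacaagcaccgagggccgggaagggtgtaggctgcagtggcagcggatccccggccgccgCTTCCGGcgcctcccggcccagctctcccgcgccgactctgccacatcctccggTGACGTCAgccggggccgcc
LMNB1 (chr5:126776423-126776622, plus strand): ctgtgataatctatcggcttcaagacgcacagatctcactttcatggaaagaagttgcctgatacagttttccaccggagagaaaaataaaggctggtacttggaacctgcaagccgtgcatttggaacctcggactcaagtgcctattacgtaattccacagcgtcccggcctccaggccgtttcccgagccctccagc
RAPGEF6 (chr5:131635230-131635429, minus strand): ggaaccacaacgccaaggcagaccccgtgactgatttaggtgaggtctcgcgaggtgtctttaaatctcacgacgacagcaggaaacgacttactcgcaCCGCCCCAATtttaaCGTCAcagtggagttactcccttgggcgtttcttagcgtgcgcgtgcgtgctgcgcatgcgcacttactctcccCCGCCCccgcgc
CSNK1A1 (chr5:149551440-149551639, minus strand): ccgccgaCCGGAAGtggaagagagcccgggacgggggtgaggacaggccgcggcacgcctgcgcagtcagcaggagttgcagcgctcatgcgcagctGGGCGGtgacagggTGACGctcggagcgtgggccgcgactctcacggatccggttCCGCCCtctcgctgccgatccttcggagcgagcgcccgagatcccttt
MACROH2A1 (chr5:135399888-135400087, minus strand): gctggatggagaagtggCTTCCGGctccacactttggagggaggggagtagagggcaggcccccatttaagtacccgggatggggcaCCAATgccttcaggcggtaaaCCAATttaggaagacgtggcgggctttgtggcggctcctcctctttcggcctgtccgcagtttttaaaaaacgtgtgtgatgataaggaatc
The NIPBL, GOLPH3, CSNK1A1 and MACROH2A1 stretches each held an ETS core, a pair of GC boxes lay in RAPGEF6 and in CSNK1A1, and the ANXA2R and LMNB1 stretches held none of the 5 motifs. Over the 250 bases before the 5′ end of all 15430 table promoters, 34.7% held a CCAAT box, 56.4% a GC box, 11.9% an ETS core, 25.6% a CRE core and 7.82% an E-box. On chromosome 5 an ETS core was found in 10.4% of 134 short arm and 12.6% of 636 long arm promoters. Of promoters with a peak in both lists, an ETS core was found in 4 of 25 on the short arm and 10 of 47 on the long arm. Of promoters with a peak in the combination list alone it was found in 1 of 21 and 5 of 23, and of those with a peak in the OTX015 list alone in 6 of 15 and 7 of 35. A match is a description of the letters and does not show binding.

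The short arm was far more densely covered than the long arm in both lists. Peaks covered 1232 kb of the short arm in the combination list and 1048 kb in the OTX015 list, which is 2.52% and 2.15% of its length. On the long arm they covered 411 and 419 kb, or 0.310% and 0.316%. Cover per length was thus 8.14 times higher on the short arm than on the long arm in the combination list and 6.81 times higher in the OTX015 list. Expressed as numbers, the short arm had 61.2 combination and 51.1 OTX015 peaks per Mb, and the long arm 7.76 and 6.60. Chromosomes other than 5 and 8 were covered to 0.608% and 0.464%, between the values of the arms.

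Between treatments the short arm had 1.17 times the cover in the combination list and the long arm 0.982 times. Both ratios were below the 1.31 of chromosomes other than 5 and 8, and below the 2.21 of chromosome 6 and the 1.72 of chromosome 13. The difference of the long arm was small, −7.45 kb. Its bin of the largest deficit, 135 to 140 Mb, had −25.7 kb, more than the whole arm. Leaving out that bin, chosen by its value, therefore had to give a ratio above 1, and gave 1.05. With equal numbers of peaks in the lists the short arm ratio was 0.810.

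Cover by 5 Mb bin showed that the short arm was not uniform. Bins were numbered from the end of the short arm and split at the arm boundary, which gave 10 bins on the short arm and 28 on the long arm. Of the short arm bins, 7 had more cover in the combination list and 3 had less, with ratios between 0.149 and 2.47. On the long arm 15 had more and 13 less, with ratios between 0.366 and 3.56 and a median of 1.01. The combination list covered between 0.0339% and 5.06% of a short arm bin, and the OTX015 list between 0.228% and 5.96%. Long arm bins reached at most 1.01% and 1.41%, and 6 of the 10 short arm bins in the combination list and 7 in the OTX015 list were above the highest long arm bin of the same list.

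**Figure D1:**
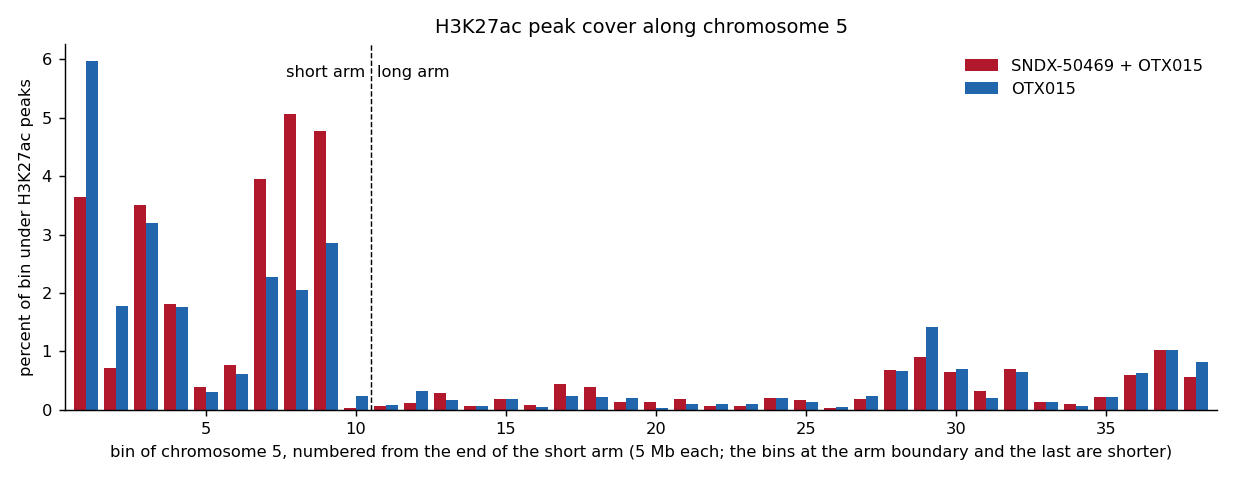
Percent of each bin of chromosome 5 lying under H3K27ac peaks, in the combination (red) and OTX015 (blue) lists, 1 library each. Bins 1 to 10 are the short arm and bins 11 to 38 the long arm; the bars of bins 7 to 9 are higher in the combination list and those of bins 1 and 2 in the OTX015 list, while no long arm bar exceeds 1.41%.

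Differences on the short arm fell in blocks. Bounds for 3 blocks were set after the bins had been seen, so they are a description. In the outer block, from 0 to 10 Mb, the combination list had 342 peaks and 217 kb of cover and the OTX015 list 738 peaks and 387 kb, a ratio of 0.561. From 10 to 30 Mb it had 870 peaks and 324 kb, against 819 peaks and 293 kb with OTX015, a ratio of 1.1. From 30 to 45 Mb it had 1768 peaks and 689 kb, against 901 peaks and 359 kb, a ratio of 1.92. The ratio thus differed between blocks of 1 arm, in the same libraries and against the same background. Its size depended on the peaks kept, as it was 0.460, 0.732 and 1.27 in the 3 blocks with equal numbers of peaks and 0.837, 1.5 and 1.60 at a −log10 q minimum of 2. With a common minimum over background, which left 50 combination peaks on the chromosome, it was 0.209, 0.0192 and 0.0791. The largest bin difference was between 35 and 40 Mb, where 253 kb were covered in the combination list and 102 kb in the OTX015 list.

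**Figure D2:**
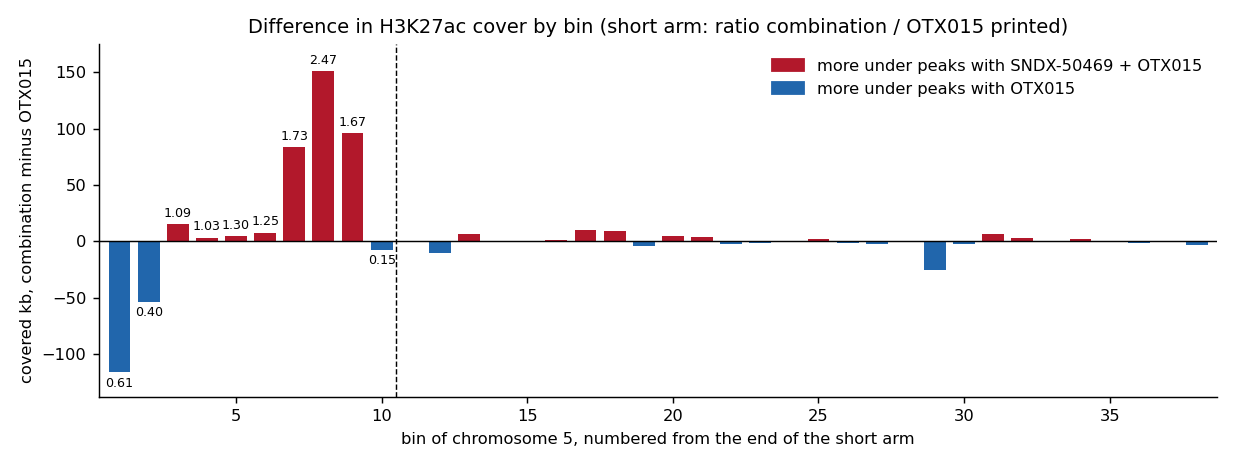
Covered kb per bin of chromosome 5, combination minus OTX015, with the ratio printed over each short arm bin; the dashed line is the arm boundary. Bins 1 and 2 were covered less in the combination list (ratios 0.61 and 0.40) and bins 7, 8 and 9 more (1.73, 2.47 and 1.67), and the largest long arm difference was that of bin 29, −25.7 kb.

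Gene number followed cover along each arm. Correlations were taken over bins between covered kb and the number of protein-coding genes. Across the 10 short arm bins the Pearson r was 0.853 in the combination list and 0.772 in the OTX015 list. Across the 28 long arm bins it was 0.814 and 0.728. These are descriptions over bins of 1 library each, and 3 bins are shorter than 5 Mb. Cover per gene differed between the arms as well, as the short arm had 8.27 kb of cover per gene in the combination list and 7.04 kb in the OTX015 list, and the long arm 0.579 and 0.589 kb. The covered kb per bin correlated between the lists with an r of 0.653 over the 10 short arm bins and 0.924 over the 28 long arm bins.

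Short arm peaks lay further from promoters than long arm peaks in both lists. Median peak width was 287 bp in the combination list and 275 bp in the OTX015 list on the short arm, and 233 and 252 bp on the long arm. Peaks that reached a −log10 q of 2 made up 280 of 2986 combination and 139 of 2492 OTX015 peaks on the short arm, and 104 of 1030 and 91 of 876 on the long arm. Intergenic peaks were 41.9% and 43.5% of the short arm peaks, against 25.4% and 26.5% of the long arm peaks, with Wilson 95% intervals of 40.1 to 43.7% and 41.6 to 45.5% on the short arm and 22.9 to 28.2% and 23.7 to 29.5% on the long arm. These intervals, like those that follow, cover counting error only. Promoter peaks were 2.18% and 1.85% of the short arm peaks and 7.48% and 9.93% of the long arm peaks. The median distance to a 5′ end was 66.7 and 92.0 kb on the short arm and 33.3 and 40.4 kb on the long arm. Protein-coding genes numbered 149 in 48.8 Mb on the short arm and 711 in 132.7 Mb on the long arm. What part of these differences in place gene density carries was not tested. Neighbours closer than 12.5 kb were stitched for comparison, and 88.9% of combination and 80.6% of OTX015 peaks of the short arm had such a neighbour, against 48.8% and 46.1% on the long arm. The longest stitched domain of the short arm was 408 kb in the combination list, between 10 and 30 Mb, and 216 kb in the OTX015 list, within the outer 10 Mb.

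Few peaks met a peak of the other list. On the short arm 14.1% of combination peaks (420 of 2986) overlapped an OTX015 peak by at least 1 bp, and 15.8% of OTX015 peaks (393 of 2492) overlapped a combination peak. The long arm shares were 18.5% (191 of 1030) and 20.8% (182 of 876). Wide peaks behaved differently, as 34 of 36 combination and 42 of 42 OTX015 peaks of at least 2 kb on the short arm met a peak of the other list, and 22 of 23 and 30 of 32 on the long arm. Of the peaks at the lowest fold of their list, 7.74% and 9.94% were met on the short arm and 8.46% and 6.72% on the long arm. Within the outer block 31.6% of the combination peaks and 12.1% of the OTX015 peaks were met, and from 30 to 45 Mb 10.5% and 20.1%, so in each block the list with more peaks had the lower share.

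Promoters with a peak were more frequent on the short arm. A promoter was the 5′ end of a protein-coding gene with 1 kb either side. On the short arm 55 of 149 genes had such a peak in the combination list (36.9%, Wilson 95% interval 29.6 to 44.9%) and 47 in the OTX015 list (31.5%, 24.6 to 39.4%). The long arm counts were 78 of 711 (11.0%, 8.88 to 13.5%) and 91 (12.8%, 10.5 to 15.5%). Over all chromosomes 15.4% of 19303 promoters had a peak in the combination list and 15.0% in the OTX015 list, so the short arm stood above and the long arm below these shares in both lists. On the short arm 32 genes had a promoter peak in both lists, 23 in the combination list alone, 15 in the OTX015 list alone and 79 in neither. Long arm numbers were 53, 25, 38 and 595. Genes from 30 to 45 Mb had the highest share, 34 of 70 in the combination list and 31 of 70 in the OTX015 list.

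**Figure D3:**
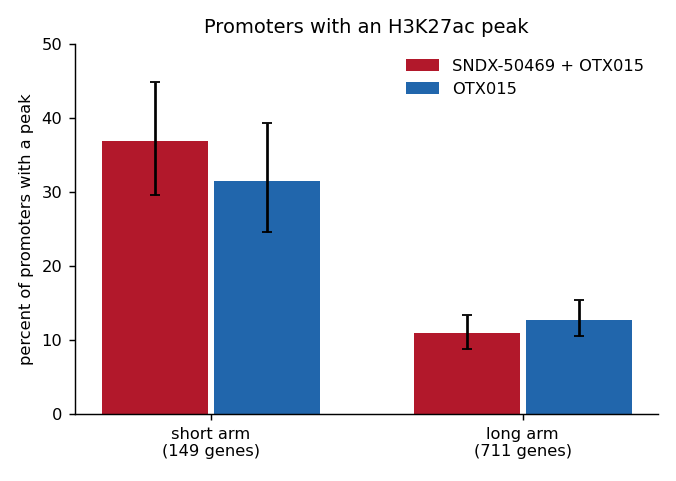
Percent of protein-coding promoters (5′ end with 1 kb either side) holding an H3K27ac peak, by arm and list, with Wilson 95% intervals that cover counting error over genes only. The short arm bars stand at 36.9% and 31.5% and the long arm bars at 11.0% and 12.8%, and the intervals of the 2 treatments overlap on each arm.

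Promoter peaks found in both lists stood less far above background in the combination library. Their median enrichment was 5.52 times background in the combination list and 8.65 times in the OTX015 list over the 32 short arm genes, and 5.47 and 8.09 times over the 53 long arm genes. All 85 were lower in the combination list. The lowest value a peak could take differed in the same direction (4.76 and 6.54 times), and what part of the difference it carries was not tested. The arms hardly differed in this measure, with median ratios of 0.633 on the short arm and 0.665 on the long arm.

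Several genes were among the 8 highest promoter peaks of the short arm in both lists. Folds of peaks, here and below, are those the caller gave, which are smaller than the times over background used for the medians above. ANXA2R, which encodes a receptor for annexin A2, had a 4.11 kb peak of 4.77-fold in the combination list. In the OTX015 list it had a 3.80 kb peak of 6.10-fold, over chr5:43039507-43043309. Measured over background, the ANXA2R promoter peak stood at 7.33 times in the combination list and 12.8 times in the OTX015 list. NIPBL, which loads cohesin onto chromatin, had a 2.89 kb peak of 4.18-fold and a 2.19 kb peak of 4.90-fold. At GOLPH3, a Golgi phosphoprotein gene, the values were 1.76 kb at 4.09-fold and 1.60 kb at 5.74-fold. MARCHF6, a ubiquitin ligase of the endoplasmic reticulum, had 2.79 kb at 4.38-fold and 1.80 kb at 5.01-fold. The shared promoter of ATPSCKMT and CCT5, a chaperonin subunit, had 3.84 kb at 4.11-fold and 2.64 kb at 4.83-fold. At these 5 promoters the combination peak was the longer and the lower of the pair. The EXOC3 promoter, second in both lists, was lower as well but shorter, with 18.1 kb at 4.59-fold and 19.2 kb at 5.86-fold. Among all 32 short arm promoters with a peak in both lists, 12 peaks were wider in the combination list and 20 in the OTX015 list. NNT, the mitochondrial transhydrogenase, and RICTOR, the defining subunit of mTORC2, ranked higher in the OTX015 list, at 5.10-fold and 4.83-fold, against 3.67-fold and 3.68-fold in the combination list. NPR3, a natriuretic peptide receptor, had a promoter peak of 4.03-fold in the combination list and none in the OTX015 list.

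The AHRR to EXOC3 block near the end of the short arm held the strongest peaks of the arm in both lists, with the highest fold at chr5:392502-397013 (9.09 in the combination list and 17.2 in the OTX015 list). Cover of the AHRR locus was nearly equal, 97.5 kb in the combination list and 98.2 kb in the OTX015 list, inside a bin that had 182 and 298 kb.

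On the long arm, RAPGEF6, an exchange factor for RAP proteins, and CSNK1A1, casein kinase 1 alpha, were among the leading promoters of both lists. RAPGEF6 had a 1.43 kb promoter peak of 4.32-fold in the combination list and a 1.34 kb peak of 4.99-fold in the OTX015 list. The CSNK1A1 promoter, shared with ARHGEF37, had 1.06 kb at 4.32-fold and 0.671 kb at 5.00-fold. LMNB1, the gene of lamin B1, had 0.423 kb at 4.45-fold in the combination list and 2.55 kb at 5.61-fold in the OTX015 list. MACROH2A1, which encodes the histone variant macroH2A1, had the longest long arm peak of the OTX015 list, 10.7 kb at 6.41-fold over chr5:135393595-135404255, and a promoter peak of 1.34 kb at 3.69-fold in the combination list. EMB, a cell surface glycoprotein gene, and PARP8, a member of the PARP family, had promoter peaks of 5.39-fold and 5.41-fold in the OTX015 list, against no promoter peak at EMB and a 0.281 kb peak at the lowest fold of 3.24 at PARP8 in the combination list. The mirror case was BRD8, a bromodomain subunit of the NuA4 acetyltransferase complex, with a 4.15-fold promoter peak in the combination list and no cover at all with OTX015.

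The 3 strongest combination peaks of the long arm lay inside PCBD2, the gene of a dimerisation cofactor of HNF1, and overlapped pseudogenes of mitochondrial genes in the RefSeq table. The peak at chr5:134926512-134928399 had a fold of 15.5 in the combination list, against 6.34 for the OTX015 peak there, and the peak at chr5:134925162-134925988 had 14.6. They set the highest fold of the arm but hardly its cover, whose ratio was 0.979 without peaks over such pseudogenes. Close to the centromere, the peak at chr5:49601503-49602175 had a fold of 4.92 and its OTX015 counterpart 6.96, the highest of the OTX015 list on this arm.

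Loci were then compared, a locus being a gene body extended by 10 kb at each end. A locus was called higher or lower where its cover differed by at least 2-fold and by at least 1 kb. Over all chromosomes 14.0% of 12789 loci with cover were called higher in the combination list and 4.39% lower. On the short arm 38 of 138 were higher (27.5%) and 20 lower (14.5%), and on the long arm 22 of 462 were higher (4.76%) and 35 lower (7.58%). By block, 0 of 38 loci from 0 to 10 Mb were higher and 15 lower, and 33 of 70 loci from 30 to 45 Mb were higher and 0 lower. The block bounds were drawn from the same cover, so these counts restate the bin differences and lend them no support. Neighbouring loci can share peaks, so these counts are not of independent genes. The median difference, combination minus OTX015, was 0.606 kb on the short arm and −0.027 kb on the long arm, beside 0.120 kb on chromosomes other than 5 and 8.

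**Figure D4:**
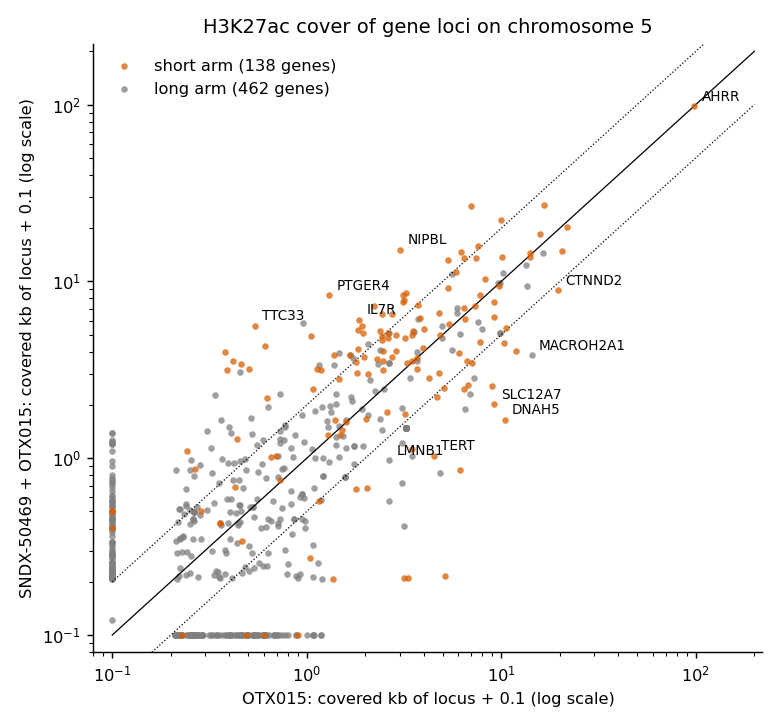
Covered kb of each protein-coding locus of chromosome 5 with a peak in either list, combination against OTX015, on log axes after adding 0.1 kb. The solid line marks equal cover and the dotted lines 2-fold; short arm loci (138, orange) lie on both sides, with NIPBL, PTGER4 and TTC33 above and SLC12A7, DNAH5 and TERT below, while AHRR lies on the line at 97.5 and 98.2 kb.

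Receptor genes for cytokines and other ligands lie on both arms. The blood receptor and cytokine list had 21 members, of which 11 had cover, 8 with more and 3 with less in the combination list, 4 called higher and 0 lower, with a median difference of 0.514 kb. The shares over all chromosomes were 14.0% of loci with cover higher and 4.39% lower. PTGER4, the EP4 receptor of prostaglandin E2, had 8.25 kb of cover in the combination list and 1.20 kb in the OTX015 list. IL7R, the alpha chain of the interleukin-7 receptor, had 5.97 and 1.76 kb, and LIFR, the receptor of leukaemia inhibitory factor, 3.74 and 1.57 kb. OSMR, the oncostatin M receptor, had 3.64 and 2.64 kb and was not called. On the long arm CSF1R, the macrophage colony-stimulating factor receptor, had 3.72 and 1.56 kb, and its neighbour PDGFRB 0.895 and 0.381 kb. TGFBI, a secreted matrix protein gene, had 0.469 kb in the combination list alone, and FGFR4 had 0.434 and 0.138 kb. IL4, IL31RA and CD180 had cover in the OTX015 list alone, of 0.120, 0.431 and 0.541 kb. IL3, IL5, IL9, IL13, CSF2, TSLP, CD14, HAVCR2, CXCL14 and IL6ST had no peak in their loci in either list. Of the 4 called higher, 3 lay between 30 and 45 Mb, where 33 of 70 loci were called. With as many peaks in each list the differences of CSF1R and LIFR turned, to −1.13 and −0.278 kb. No peak of the PTGER4 or CSF1R locus reached a −log10 q of 2 in either list.

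The list of del(5q) genes of myeloid neoplasms lies wholly on the long arm. Of its 23 members 21 had cover, 8 with more and 13 with less in the combination list, 1 called higher and 1 lower, and the median difference was −0.247 kb. Loci with cover over all chromosomes were called higher in 14.0% and lower in 4.39%, and those of the long arm in 4.76% and 7.58%. RPS14, a ribosomal protein gene whose loss of 1 copy is tied to anaemia in del(5q) syndrome, had 0.420 kb in the combination list and 0.649 kb in the OTX015 list. CSNK1A1, the target that lenalidomide directs to degradation, had 1.39 and 0.671 kb. TNIP1, a partner of the NF-kB inhibitor A20, had 2.72 and 7.12 kb and was called lower. BRD8 was called higher, with 1.29 kb and none, but had a difference of 0.453 kb at a −log10 q minimum of 2, below the call.

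Several members of that list had less cover without reaching the call. TIFAB, a regulator of TRAF6 signalling, had 5.02 kb in the combination list and 9.75 kb in the OTX015 list, and CXXC5, a CXXC zinc finger gene, 9.31 and 13.4 kb. DIAPH1, a formin, had 5.76 and 7.49 kb, and HSPA9, mitochondrial HSP70, 1.56 and 2.27 kb. NSD1, a methyltransferase of histone H3 lysine 36, had 1.66 and 1.96 kb, and KDM3B, a demethylase of histone H3 lysine 9, 0.857 and 1.20 kb. G3BP1, the stress granule nucleator, had 0.108 and 1.1 kb, with a promoter peak in the OTX015 list alone. NPM1, the nucleolar gene often mutated in acute myeloid leukaemia, had 0.346 kb in the OTX015 list alone, and so had EGR1 (0.247 kb) and SSBP2 (0.622 kb). APC had 0.189 and 0.286 kb. The remaining members with cover had more in the combination list. PPP2CA, the catalytic subunit of protein phosphatase 2A, had 1.03 and 0.220 kb, CDC25C, a mitotic phosphatase, 1.16 and 0.660 kb, and DDX41, REEP5, SPARC and CTNNA1 had 0.439, 0.374, 0.189 and 0.124 kb with none in the OTX015 list. CDX1 and RAD50 had no peak.

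Myeloid and leukocyte signalling genes had 28 members, 25 with cover, of which 18 had more and 7 less in the combination list and 7 were called higher and 1 lower, beside 14.0% and 4.39% of loci with cover over all chromosomes. DAB2, an adaptor of endocytosis, had 4.83 kb in the combination list and 0.955 kb in the OTX015 list, and FYB1, an adaptor of T cell and platelet signalling, 7.29 and 3.62 kb. Both lie between 30 and 45 Mb, where 33 of 70 loci were called higher. At a −log10 q minimum of 2 the DAB2 difference was 0.175 kb, below the call, and that of FYB1 1.36 kb. ERAP1 and LNPEP, also called higher, are close neighbours with shared peaks. TNIP1, which belongs to this list as well, was the member called lower. The 9 T, B and NK cell genes had 4 with cover and none called, and CD74 and GZMA had no peak in their loci. In the list of the 5q31 cytokine cluster and its neighbours 8 of 14 had cover, 4 with more and 4 with less, and none was called. Its largest difference was at SLC22A4, the ergothioneine transporter, with 5.00 and 2.55 kb.

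The 5p15 genes at the end of the short arm went the other way. Of 36 members 34 had cover, 9 with more and 25 with less in the combination list, 1 called higher and 12 lower, with a median difference of −1.50 kb. Over all chromosomes the shares called were 14.0% and 4.39% of loci with cover. SLC12A7, a potassium chloride cotransporter, had 1.91 kb in the combination list and 9.11 kb in the OTX015 list. TERT, the reverse transcriptase of telomerase, had 0.930 and 4.40 kb, and its neighbour CLPTM1L 4.38 and 10.3 kb. Within 10 kb of the TERT 5′ end the values were 0.930 and 0.653 kb, and neither list had a TERT promoter peak. At MRPL36, a mitochondrial ribosomal protein gene, 2.38 and 6.32 kb were covered, all within 10 kb of the 5′ end. The MRPL36 promoter itself held a peak in the combination list alone, of 0.207 kb. Neighbours were alike here, as 15 of the 38 loci with cover in the outer 10 Mb were called lower. At a −log10 q minimum of 2 the TERT difference turned, to 0.604 kb, and the SLC12A7 locus had no peak in either list.

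Genes used outside blood were covered on the short arm too. Of 29 brain and other genes 22 had cover, 9 with more and 13 with less, and 2 were called higher and 5 lower. The shares over all chromosomes were 14.0% of loci with cover higher and 4.39% lower. CTNND2, which encodes a delta-catenin of neurons, had 8.84 kb in the combination list and 19.5 kb in the OTX015 list, spread over a long gene with no cover within 10 kb of its 5′ end in either list. DNAH5, a dynein heavy chain of cilia, had 1.55 and 10.3 kb, with a promoter peak in the combination list alone. PRLR, the prolactin receptor, had 8.46 and 3.14 kb. At a −log10 q minimum of 2 the CTNND2 difference was 0.946 kb in the other direction, and the PRLR locus had no peak in either list. The DNAH5 difference was −0.721 kb at that minimum, below the call. Among long arm members the GABA receptor genes GABRB2 and GABRP had no peak, and KCNIP1, which encodes a potassium channel interacting protein, had 3.46 kb in the combination list and 3.58 kb in the OTX015 list. The 53 clustered protocadherin genes between 140.8 and 141.5 Mb, cell adhesion genes of neurons, had 0.993 kb of cover in the combination list and 1.58 kb in the OTX015 list over the whole span, with 1 promoter under a peak and 0.

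The next lists hold genes that most cells use. Their counts of calls stand beside 14.0% of loci with cover called higher over all chromosomes and 4.39% lower. Among 17 ribosome and protein synthesis genes with cover, more was seen at 7 and less at 10, and 3 were called higher and 2 lower. The 3 called higher were RPL37, a protein of the large ribosomal subunit (4.81 kb in the combination list and 2.34 kb in the OTX015 list), PAIP1, a partner of poly(A)-binding protein (6.45 and 2.32 kb), and TARS1, threonyl-tRNA synthetase (3.09 and 1.03 kb), which all lie on the short arm beyond 30 Mb. The 2 called lower were MRPL36 on the short arm and RACK1, a scaffold protein of the small ribosomal subunit, on the long arm (1.12 and 3.0 kb). Of 20 housekeeping genes with cover 13 had more and 7 less, and 3 were called higher, GOLPH3 (7.17 and 2.12 kb) and HMGCS1 of sterol synthesis (3.06 and 1.08 kb) on the short arm and SQSTM1, the autophagy receptor p62 (3.27 and 1.28 kb), on the long arm. Cell cycle and DNA maintenance genes had 14 with cover, 7 with more and 7 with less, of which SKP2, XRCC4, KIF20A and CDC23 were called higher and TERT lower. KIF20A and CDC23 lie beside BRD8 and share its peaks. SKP2, an F-box protein that marks p27 for degradation, had 3.38 and 1.69 kb, and XRCC4, a factor of end joining, 1.84 and 0.532 kb. The calls at RPL37, PAIP1 and SQSTM1 turned at a −log10 q minimum of 2, to −1.49, −0.865 and −0.755 kb, and that at SKP2 with equal numbers of peaks, to −0.423 kb. With the same −log10 q minimum GOLPH3 and XRCC4 differed by 0.152 and 0.288 kb, below the call. HSPA4, an HSP110 chaperone, differed little, with 0.896 and 1.00 kb.

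Transcription and chromatin factors had 45 members, 35 with cover, 16 with more and 19 with less in the combination list, 5 called higher and 3 lower. The shares over all chromosomes were 14.0% called higher and 4.39% lower. NIPBL, whose gene body is chr5:36876769-37066413, had 15.0 kb in the combination list and 2.92 kb in the OTX015 list over its locus. ZFR, a zinc finger RNA-binding protein gene, had 15.7 and 7.47 kb, and −0.702 kb as the difference at a −log10 q minimum of 2. The 3 called lower were MACROH2A1 (3.73 and 14.2 kb), MEF2C (2.19 and 6.83 kb) and BRD9 (2.39 and 4.95 kb). SLC1A3, a glutamate transporter of glia outside this list, had 26.5 and 6.88 kb and was picked after its values were seen. Its locus holds the strongest short arm combination peak outside the outer block.

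Within 10 kb either side of the 5′ end, differences went both ways on each arm. On the short arm more cover in the combination list was seen at ZFR (5.02 and 0.950 kb), OTULINL (9.17 and 5.22 kb), DAP, a death-associated protein gene (4.91 and 1.88 kb), GOLPH3 (4.30 and 1.74 kb) and TTC33 (2.50 kb and none). Less was seen at MRPL36, CLPTM1L (0.946 and 3.31 kb), ZDHHC11, a palmitoyltransferase gene (0.109 and 2.30 kb), EGFLAM (none and 1.11 kb) and GHR, the growth hormone receptor (0.226 and 1.24 kb). On the long arm DUSP1, a MAP kinase phosphatase, had 3.83 and 1.36 kb, ERAP1, an aminopeptidase of antigen processing, 3.28 and 1.06 kb, and SLC22A4 4.64 and 2.55 kb. The long arm deficits were larger, with 2.43 and 13.2 kb at MACROH2A1, 2.24 and 6.63 kb at DCANP1 beside TIFAB, 1.79 and 5.96 kb at PARP8, 0.189 and 2.89 kb at EFNA5, an ephrin, and 0.624 and 3.0 kb at EMB. MACROH2A1, DCANP1 and TIFAB lie within 135 to 136 Mb, inside the bin with the largest long arm deficit.

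**Figure D5:**
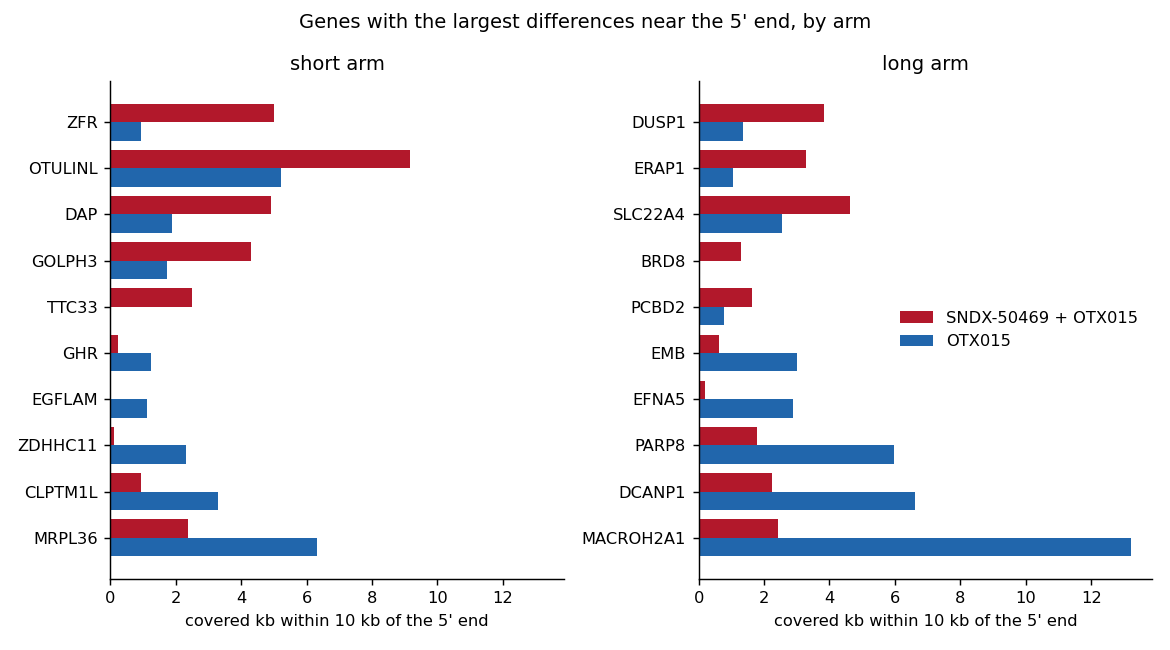
Covered kb within 10 kb of the 5′ end of the 5 genes per arm and direction with the largest differences, in the combination (red) and OTX015 (blue) lists, 1 library each. The longest bar is MACROH2A1 on the long arm at 13.2 kb with OTX015, against 2.43 kb with the combination, and the largest combination value is OTULINL on the short arm at 9.17 kb.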

How the data were processed

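Per the labels, chromatin of MOLM13 cells was precipitated with an H3K27ac antibody (sample titles write H2K27Ac) and tagmented with Tn5. Per the submitters' processing notes, bcl2fastq 2.17, Trimmomatic 0.33, Bowtie 1.1.2, MACS2 2.1.0 and deepTools were used with GRCh38; whether the input served as control is not given in the sources used here. For each ChIP library the authors deposited 1 broad peak list, in which their peak caller gave every peak a score, the −log10 of its p and of its q, and a fold enrichment, the ratio of pileup plus 1 to background plus 1. The inputs were not analysed here.

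Cover is the union of peaks. The background was solved from the lowest fold and −log10 p of each list under a Poisson law. Genes came from the RefSeq table of GRCh38.p14 and strands from GENCODE, which gave 860 of 904 protein-coding genes of chromosome 5. Of 274 entries in 11 gene lists 273 matched. Members and lists were chosen with earlier results of these data known. The genes named are the 8 highest promoter peaks per list and arm, the 5 largest 5′ window differences per arm and direction at least 20 kb apart, 3 members per gene list, the genes nearest the 3 longest peaks, and all members with a peak of the del(5q) and receptor lists; a few others serve as examples. Alternatives were stricter or equal peak sets, a common enrichment, merging, other windows and bins. Interval code was tested on simulated data. Computation ran in Python 3.11.15 with pandas 2.3.3, numpy 2.4.6, statsmodels 0.14.6, scipy 1.17.1 and, for plots, matplotlib 3.10.9. Some items are not reported here.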

Additional observations from a re-analysis of the deposited data

How the results depend on the processing

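No paired analysis was possible because the treatments hold 1 library each, and no replicate was left out for the same reason. Depth was inferred from peak values, and cover is a length of called peaks and not a signal. Peaks of −log10 q of at least 2 gave combination over OTX015 cover ratios of 1.12 on the short arm and 0.882 on the long arm, and short over long arm ratios of 5.41 (combination) and 4.24 (OTX015). Equal numbers of peaks gave 0.810, 0.636 and 8.67, and 0.732 from 10 to 30 Mb. A common minimum over background, which by construction left 50 combination peaks and all 3368 OTX015 peaks, gave 0.109, 0.0672 and 11.1, and 0.0192 and 0.0791 from 10 to 30 and 30 to 45 Mb. Merging gave 1.28, 0.992, 8.73 and 6.76. Without the first 5 Mb the short arm values were 1.40, 7.73 and 5.43. Of the alternatives added after seeing the data, leaving out mitochondrial pseudogenes gave 0.979, 8.22 and 6.86 and leaving out 135 to 140 Mb gave 1.05, 8.80 and 7.88. The short arm was the denser in each of these.

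Promoters with a peak of −log10 q of at least 2 numbered 16 and 18 on the short arm and 27 and 33 on the long arm in the combination and OTX015 lists. The common minimum left 3 and 5 combination promoters. Shares of combination peaks and of OTX015 peaks met were 16.4% and 29.5% on the short arm and 34.6% and 40.7% on the long arm for the stricter peaks; 17.2%, 11.6%, 27% and 16.2% for equal numbers; 66.7%, 0.923%, 88.2% and 1.94% for the common minimum; and 8.0%, 8.83%, 14.3% and 14.4% for an overlap of at least 50% of the peak. Without the first 5 Mb 11.7% of short arm combination peaks were met. Bins with more cover in the combination list were 57.9% of 38, 21.1% with equal numbers and 0% with the common minimum.

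Of 34 named loci called higher or lower, 33 kept their direction in the gene body alone, 34 with 50 kb either side, 31 with equal numbers, 21 with stricter peaks and 14 with the common minimum. With stricter peaks 7 had no peak left in either list: PTGER4, CSF1R, TTC33, DUSP1, PRLR, SKP2 and SLC12A7. Differences that turned, in kb, were with stricter peaks CTNND2 0.946, TERT 0.604, RPL37 −1.49, PAIP1 −0.865, SQSTM1 −0.755 and ZFR −0.702, and with equal numbers CSF1R −1.13, LIFR −0.278 and SKP2 −0.423. With the common minimum they were ZFR −7.47, FYB1 −3.62, MARCHF6 −3.56, PRLR −3.13, NIPBL −2.92, RPL37 −2.34, PAIP1 −2.32, GOLPH3 −2.12, IL7R −1.76, SKP2 −1.69, ERAP1 −1.63, LIFR −1.57, CSF1R −1.56, DUSP1 −1.36, SQSTM1 −1.28, PTGER4 −1.20, DAB2 −0.955, XRCC4 −0.532 and TTC33 −0.441, since almost no combination peak passed it.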
